A study of Mus musculus with 18 samples.

Results

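Extra-embryonic endoderm stem (XEN) cells are a culture model of the primitive endoderm, the blastocyst layer that gives rise to the visceral and parietal endoderm of the yolk sac. The comparison described here set XEN cells on day 7 of hypoxia (2% oxygen, prolonged) against XEN cells on day 2 of hypoxia (2% oxygen, acute), with 2 libraries per day, labelled as biological replicates. It asks which transcripts differ between a longer and a shorter stay at low oxygen, and both groups were hypoxic. The genes followed were all those with a TPM (transcript level scaled to a fixed total per library) above 0.4 in at least 2 of the 6 XEN libraries, the other 2 being normoxic (20% oxygen), which gave 10894 of the 11538 genes of the XEN table. The whole series held 18 libraries of embryonic stem cells (ESCs), trophoblast stem cells (TSCs) and XEN cells. The labels give no line name and no genetic change for the XEN cells, which were grown on gelatin in medium partly conditioned on mouse embryonic fibroblasts. Nothing says how far apart the cultures were taken, so p-values measure the spread between these libraries.

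Cells sense low oxygen through prolyl hydroxylases, encoded by the Egln genes, which use oxygen to mark the alpha subunits of hypoxia-inducible factor (HIF) for degradation. When oxygen is short, HIF alpha subunits pair with ARNT and bind DNA at a short core motif near genes of glycolysis, vessel growth and iron handling. Some of these targets, Egln3 among them, act back on the pathway. Endoderm of the parietal type is further known for laying down a thick basement membrane of laminins and type IV collagen.

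The XEN identity of all 4 hypoxic libraries was checked first. Gata4, a transcription factor of primitive endoderm, had 197 and 179 TPM on day 2 and 159 and 167 TPM on day 7. Sox17, another endoderm factor, had 1207 and 1393 TPM on day 2 and 1325 and 1022 TPM on day 7. Gata6, Sox7, Pdgfra and Dab2 were likewise expressed in all libraries, and none of these 6 markers was differentially expressed (DE). Pou5f1, the ESC marker, was at 0.842 to 1.48 TPM over the 6 libraries, which were 13 to 36 reads. Col1a2, a fibroblast collagen, was at 0.0671 to 0.272 TPM (8 to 39 reads) and did not pass the filter, like the TSC factor Elf5 (8 to 53 reads). Nanog, Sox2, Cdx2, Eomes, Col1a1, Col3a1, Thy1, Dcn and Twist2 were not among the genes of the XEN table, so their levels were not analysed here.

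Libraries were not equally deep, and depth moved with the comparison. Reads recovered from the deposited values came to 75204029 and 71085278 on day 2 and to 50419376 and 35592641 on day 7. The normoxic libraries had 43683121 and 72029024 reads. Over all genes tested, replicate 2 of day 7 lay nearer to normoxia replicate 2 (Euclidean distance 39.1 on the log2 scale) than to its own replicate (47.8) or to day 2 replicate 2 (42.0). The normoxic libraries also differed from each other along the same genes. Of 1439 genes past 1.5-fold between normoxia replicate 2 and replicate 1, 1102 differed in the direction of day 7 minus day 2 and 337 in the opposite direction. Pearson's r between these differences was 0.43 over 10894 genes, which are not independent replicates. The part of depth and of this difference between cultures in the results below was not tested.

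Day 7 differed from day 2 by few genes that passed the test and by many that did not. A gene was DE at a Benjamini-Hochberg adjusted p (limma, two-sided, on log2(TPM + 0.5), all 6 XEN libraries in the fit) of at most 0.1 and a fold change over 1.5. By this rule 4 genes were DE, all higher on day 7, which was 0.0367% of the genes tested. They were Col6a1, Col6a2, Adm and Egln3. None was DE in the lower direction, where 295 genes (2.71%) were past 1.5-fold with an unadjusted p under 0.05. The corresponding number in the higher direction was 563 (5.17%). In all, 1295 genes had an unadjusted p under 0.05 where 545 are expected by chance. The median log2 difference over all genes was -0.025, with 46.8% of genes above 0 and 53.2% below. The libraries of the 2 days did not overlap in 21.7% of genes on the higher side and in 25.9% on the lower. For a single gene, an exact permutation test of 2 against 2 libraries cannot go below p = 0.333.

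**Figure D1:**
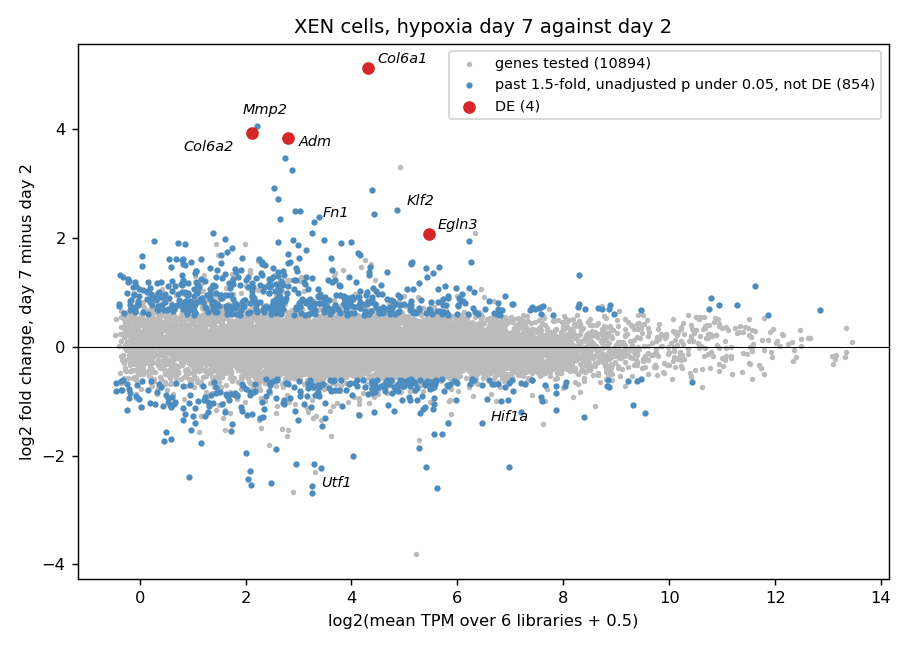
Each point is one of 10894 genes in XEN cells, with its level over the 6 libraries on the x axis (log2 TPM) and the log2 fold change, day 7 minus day 2, on the y axis. Red points are the 4 DE genes, all above 0, and blue points are the 854 genes past 1.5-fold with an unadjusted p under 0.05 that were not DE.

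Both genes of collagen VI in the table rose. Col6a1 and Col6a2 encode alpha chains of collagen VI, which forms beaded filaments in the matrix next to basement membranes. Col6a1 had 0.989 and 1.17 TPM on day 2 and 74.0 and 39.7 TPM on day 7, with 0.142 and 0.108 TPM in normoxia. The day 7 libraries stood far above the other 4, and replicate 1 was the higher of the pair. The mean went from 1.08 ± 0.126 to 56.8 ± 24.2 TPM (SD, n = 2), a log2 fold change of 5.12 (SE 0.31, limma adjusted p = 0.010). In reads, Col6a1 had 90 and 104 on day 2 against 4848 and 1798 on day 7. Because this is bulk RNA, few cells with much of a transcript and many cells with little cannot be told apart, here or for any gene below.

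Col6a2 had 0.205 and 0.203 TPM on day 2 and 16.3 and 6.28 TPM on day 7, with normoxia at 0 and 0.0541 TPM. As for Col6a1, the days did not overlap and day 7 replicate 1 was the higher. The log2 fold change was 3.92 (SE 0.41, limma adjusted p = 0.094), from 30 and 29 reads to 1718 and 456. Col6a2 passed the filter on low values only through its day 7 libraries, and without that filter its adjusted p was 0.118, so that the call rests on the filter. Col6a1 (ENSMUSG00000001119) lies on the minus strand of chromosome 10 at 76708792-76726168 and Col6a2 (ENSMUSG00000020241) on the same strand at 76595762-76623630, in GRCm38. They are 85161 bases apart with 1 annotated gene between them, the lincRNA Gm35608, and no protein-coding gene.

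Adm encodes adrenomedullin, a secreted peptide that widens vessels and a well-known HIF target. It had 0.884 and 0.722 TPM on day 2 and 17.2 and 18.8 TPM on day 7, and 0.285 and 0.872 TPM in normoxia. The day 7 replicates were close together and above all others. The mean rose from 0.803 ± 0.115 to 18.0 ± 1.16 TPM (SD, n = 2), a log2 fold change of 3.83 (SE 0.30, limma adjusted p = 0.026). Adm is a short gene (ENSMUSG00000030790, chromosome 7, 110627661-110629820, plus strand), and its counts were small, with 10 and 8 reads on day 2 and 140 and 106 on day 7.

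Egln3 encodes the prolyl hydroxylase PHD3 and was the DE gene with the most reads. It had 21.2 and 23.1 TPM on day 2 and 80.6 and 110.2 TPM on day 7, from 2759 and 2947 to 7559 and 7148 reads. Normoxia was at 11.8 and 14.4 TPM, so that the 3 conditions did not overlap. The log2 fold change of day 7 over day 2 was 2.07 (SE 0.20, limma adjusted p = 0.087). Egln3 (ENSMUSG00000035105) lies on chromosome 12 at 54178981-54203860 on the minus strand.

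**Figure D2:**
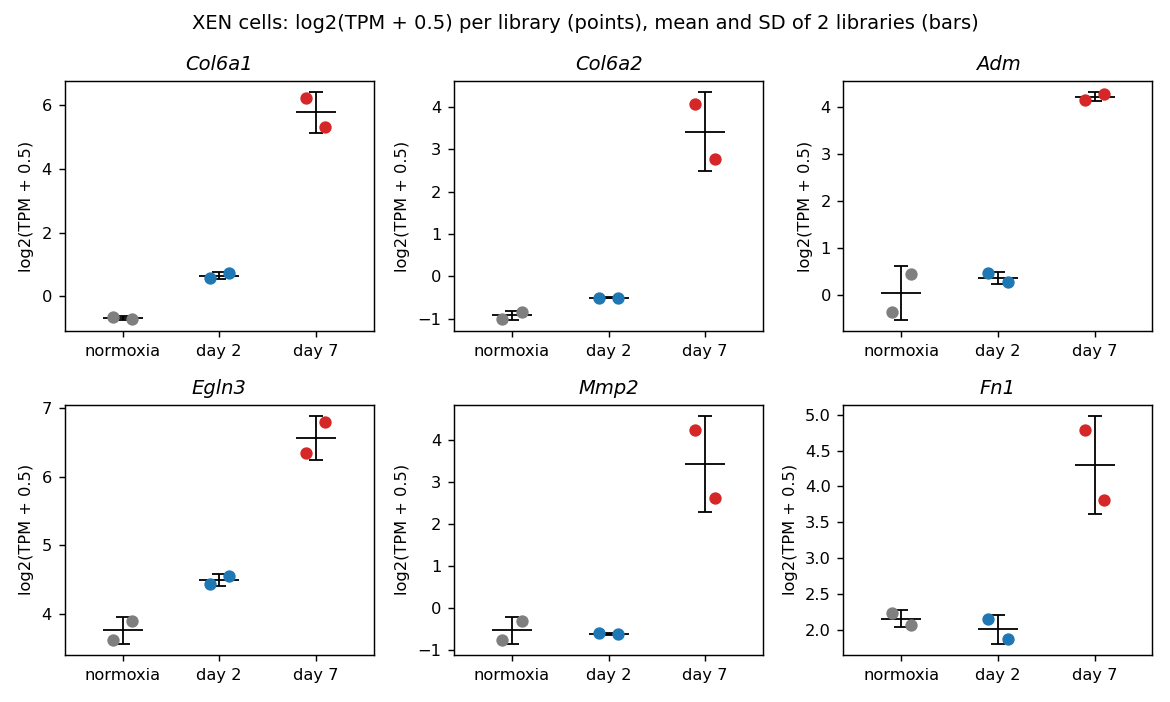
Points are log2(TPM + 0.5) in each XEN library for the 4 DE genes and for Mmp2 and Fn1, which were not DE, with the mean and SD of the 2 libraries of each condition as bars. The day 7 libraries lie above the day 2 libraries in all panels, and replicate 1 of day 7 lies above replicate 2 for Col6a1, Col6a2, Mmp2 and Fn1.

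The promoters of the DE genes are shown because Adm and Egln3 are textbook HIF targets. Windows from 250 bases before to 50 after the annotated start (RefSeq, GRCm38.p6) were searched on both strands for ACGTG or GCGTG, the core of the HIF binding motif. Capitals mark each match, written as it reads 5′ to 3′ on the gene's strand, so that a match on the other strand appears as its reverse complement.
Adm, chr7:110627407-110627706, plus strand: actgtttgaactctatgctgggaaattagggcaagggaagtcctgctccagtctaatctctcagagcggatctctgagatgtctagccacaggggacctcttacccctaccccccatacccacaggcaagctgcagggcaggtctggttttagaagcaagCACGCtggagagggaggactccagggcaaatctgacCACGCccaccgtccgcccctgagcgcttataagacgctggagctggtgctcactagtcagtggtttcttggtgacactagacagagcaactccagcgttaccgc
Egln3, chr12:54203825-54204124, minus strand: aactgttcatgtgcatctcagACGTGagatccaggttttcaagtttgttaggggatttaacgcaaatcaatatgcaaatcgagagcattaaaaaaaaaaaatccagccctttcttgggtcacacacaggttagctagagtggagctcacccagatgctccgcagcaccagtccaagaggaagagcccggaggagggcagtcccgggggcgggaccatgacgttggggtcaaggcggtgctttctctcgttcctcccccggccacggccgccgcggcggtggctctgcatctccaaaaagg

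The Adm window held 2 matches, at -90 and -54 from the start, and the Egln3 window 1, at -229. The windows of Col6a1 and Col6a2 (the one nearest the annotated gene start of 2 listed) held 0. Such short letters are common: 14380 of 32851 RefSeq promoter windows, or 43.8%, held at least 1 match. A match describes the letters and not binding, and its absence says nothing of sites elsewhere.

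The 4 calls rested on few libraries. No gene was DE without day 2 replicate 1 (smallest adjusted p = 0.699, 491 genes at an unadjusted p under 0.05) or without day 2 replicate 2 (0.349, 1456 genes). Without day 7 replicate 1 only Col6a1 was DE, and without day 7 replicate 2 the number was 83, of which 60 were higher and 23 lower. The log2 fold change of Col6a1 stayed between 4.67 and 5.74 over all settings tried, that of Col6a2 between 3.22 and 5.74, that of Adm between 3.27 and 4.48 and that of Egln3 between 1.84 and 2.29. The call of Col6a2 also ended with a pseudocount of 1 (limma adjusted p = 0.123), a filter at 1 TPM (0.112) and voom (0.243), that of Egln3 without the filter (0.118) and without the mean-variance trend (0.102, as for Col6a2) and that of Adm with voom (0.162). With a fit to the 4 hypoxic libraries alone, 37 genes were DE, 25 higher and 12 lower, with Mmp2, Klf2, Nepn, Dhrs7, Cck, Fn1, Bst2 and Utf1 among them.

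The other leading genes on the higher side did not pass the adjusted threshold and are given by their values. Mmp2 encodes a gelatinase that degrades type IV collagen and was next in size to Col6a1. It had 0.161 and 0.149 TPM on day 2 and 18.5 and 5.70 TPM on day 7 (22, 20, 1819 and 388 reads), and passed the filter only through day 7, with a log2 difference of 4.05 (SE 0.50, limma adjusted p = 0.144). Fn1, the matrix glycoprotein fibronectin, had 3.94 and 3.15 TPM on day 2 and 27.0 and 13.5 TPM on day 7, a log2 difference of 2.29 (SE 0.33, limma adjusted p = 0.218). In both genes the days did not overlap and day 7 replicate 1 was the higher library, as in the collagen VI genes.

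Klf2, a Krüppel-like transcription factor, had 11.8 and 8.77 TPM on day 2 and 61.3 and 59.4 TPM on day 7. Here the day 7 replicates lay close together, while normoxia was spread over 9.63 and 21.5 TPM (log2 difference 2.51, SE 0.36, limma adjusted p = 0.218). The peptide hormone gene Cck had 4.0 and 2.16 TPM on day 2 and 17.9 and 19.995 TPM on day 7, against 0.420 and 1.41 TPM in normoxia (log2 difference 2.49, limma adjusted p = 0.33). Dhrs7, a short-chain dehydrogenase, had 2.03 and 2.22 TPM on day 2 and 14.2 and 14.3 TPM on day 7. For Nepn, which encodes the proteoglycan nephrocan, values were 0.366 and 0.249 TPM on day 2 and 9.62 and 7.38 TPM on day 7, but 2.16 and 17.5 TPM in normoxia. The normoxic libraries of Nepn thus spanned more than the day 7 libraries and reached above them.

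On the lower side, among genes with an unadjusted p under 0.05, no overlap of the days and a mean TPM of at least 1, Utf1 led with a log2 difference of -2.68 (SE 0.37, limma adjusted p = 0.218). This chromatin-associated gene, best known from pluripotent cells, had 16.2 and 16.2 TPM on day 2 (112 and 110 reads) and 1.203 and 3.48 TPM on day 7 (6 and 12 reads), with normoxia between them at 8.85 and 8.54 TPM. Spp1, the secreted glycoprotein osteopontin, had 103 and 73.1 TPM on day 2 and 16.0 and 12.03 TPM on day 7. Its normoxic libraries lay far apart, at 71.8 and 15.7 TPM. S1pr5, a sphingosine 1-phosphate receptor, had 17.4 and 21.9 TPM on day 2 and 2.11 and 3.88 TPM on day 7, with 7.80 and 1.06 TPM in normoxia. Prss23, a serine protease, had 7.79 and 9.16 TPM against 1.04 and 1.11 TPM. Other leading genes on this side were Hamp, Elmod1, F2rl1, Prr22, B3gnt7, Slc34a2 and Cd276, with log2 differences of -2.43 to -2.16 and adjusted p values of 0.35 to 0.39.

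Most of the leading genes also differed between the normoxic cultures. Of the 12 with the largest difference in each direction, 20 of 24 were past 1.5-fold between normoxia replicate 2 and replicate 1, all 20 in the direction of day 7 minus day 2 (9 of 12 higher, 11 of 12 lower). The exceptions were Col6a1, Col6a2, Mmp2 and Utf1. This rule was applied to TPM + 0.5, which shrinks the differences of low genes. In normoxia Col6a1 (0.142 and 0.108 TPM), Col6a2 (0 and 0.0541 TPM) and Mmp2 (0.0943 and 0.310 TPM, 8 and 43 reads) lay below that pseudocount. For them the rule says little of a difference between the normoxic cultures. Adm was among the 20, at 0.285 and 0.872 TPM from 2 and 10 reads. Of the 563 genes past 1.5-fold with an unadjusted p under 0.05 on the higher side, 369 were above both normoxic libraries in both day 7 libraries, and 281 were below both normoxic libraries on day 2. On the lower side, 158 of 295 were below both normoxic libraries on day 7 and 167 above both on day 2. Of all 10894 genes tested, 1903 were above both normoxic libraries on day 7 and 2601 below both. On day 2, 2138 were above both and 2331 below both. The 563 and 295 genes were picked by their day 7 and day 2 values, so their counts are not independent of that choice.

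**Figure D3:**
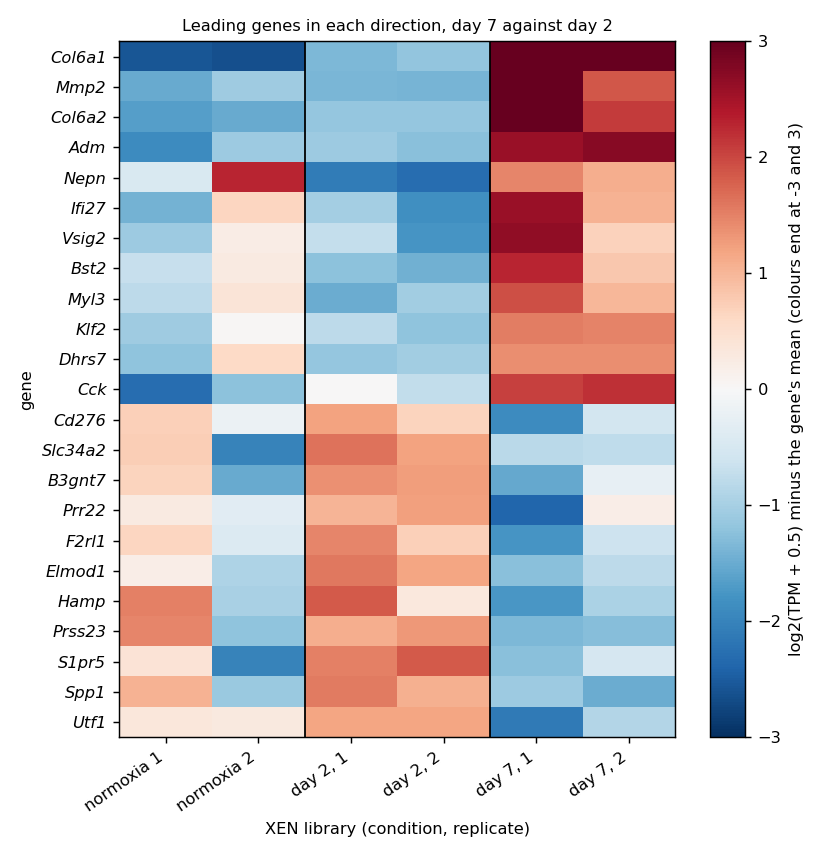
Rows are genes with the largest log2 fold changes in each direction, among those with an unadjusted p under 0.05, no overlap between the days and a mean TPM of at least 1, and columns are the 6 XEN libraries. Colour gives log2(TPM + 0.5) minus the gene's mean over the 6 libraries. The day 7 libraries are red in the upper 12 rows, and normoxia replicate 2 resembles them in many rows, with Nepn the clearest at 17.5 TPM.

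Genes of the HIF pathway, Egln3 included, lay near their day 2 values by the median of the list, with single members on either side. Of 26 HIF pathway and feedback genes tested, 1 was DE (Egln3), 3 (11.5%) were past 1.5-fold with an unadjusted p under 0.05 on the higher side and 2 (7.69%) on the lower side, against 5.17% and 2.71% of all genes, and the median log2 difference was 0.01. Ndrg1, a widely used hypoxia marker, had 6.07 and 4.34 TPM on day 2 and 11.9 and 13.6 TPM on day 7 (log2 difference 1.23, SE 0.25, limma adjusted p = 0.37). Hif1a, the oxygen-labile subunit itself, had 156 and 91.5 TPM on day 2 and 50.4 and 73.9 TPM on day 7, with normoxia at 103 and 85.0 TPM. The log2 difference of Hif1a transcripts was -0.96 (SE 0.30, limma adjusted p = 0.39), and the day 2 replicates were themselves far apart. Tfrc, the transferrin receptor, had 109 and 131 TPM on day 2 and 63.1 and 86.6 TPM on day 7.

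Epas1, which encodes HIF-2 alpha, had 305 and 261 TPM on day 2 and 316 and 260 TPM on day 7, and Egln1, the main prolyl hydroxylase, 94.5 and 110 TPM against 65.4 and 109 TPM. Neither differed beyond the spread of its replicates. The growth factor gene Vegfa had 116 and 115 TPM on day 2 and 235 and 108 TPM on day 7, so the days overlapped (log2 difference 0.46, SE 0.37). Among 16 angiogenic and vasoactive factors, 2 (12.5%) were past 1.5-fold with an unadjusted p under 0.05 on the higher side and 0 on the lower. The shares of all genes were 5.17% and 2.71%. The 2 were Adm, which was DE, and Mmp2, which passed the filter only through day 7. The median of the list was -0.16. That median ranged from -0.15 to 0.13 with single libraries left out.

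Glycolysis genes had a median log2 difference of -0.08 between the days over 25 genes, with 0 DE. Past 1.5-fold with an unadjusted p under 0.05 were 3 of the 25 on the higher side and 1 on the lower, against 5.17% and 2.71% of all genes. Of the 3, Pfkp passed the filter only through day 7, at 0.285 and 0.347 TPM on day 2 and 1.47 and 0.534 TPM on day 7. Pdk1, the kinase that closes pyruvate dehydrogenase, had 2.54 and 4.33 TPM on day 2 and 7.50 and 13.1 TPM on day 7 (log2 difference 1.44, SE 0.35, limma adjusted p = 0.37). Ldhb, a lactate dehydrogenase subunit, had 12.9 and 13.7 TPM against 22.5 and 28.9 TPM, while normoxia was at 19.2 and 24.8 TPM. Pkm, the pyruvate kinase gene, had 1856 and 1713 TPM on day 2 and 923 and 1407 TPM on day 7 (log2 difference -0.65, SE 0.23, limma adjusted p = 0.40). Single members thus lay on either side of day 2.

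**Figure D4:**
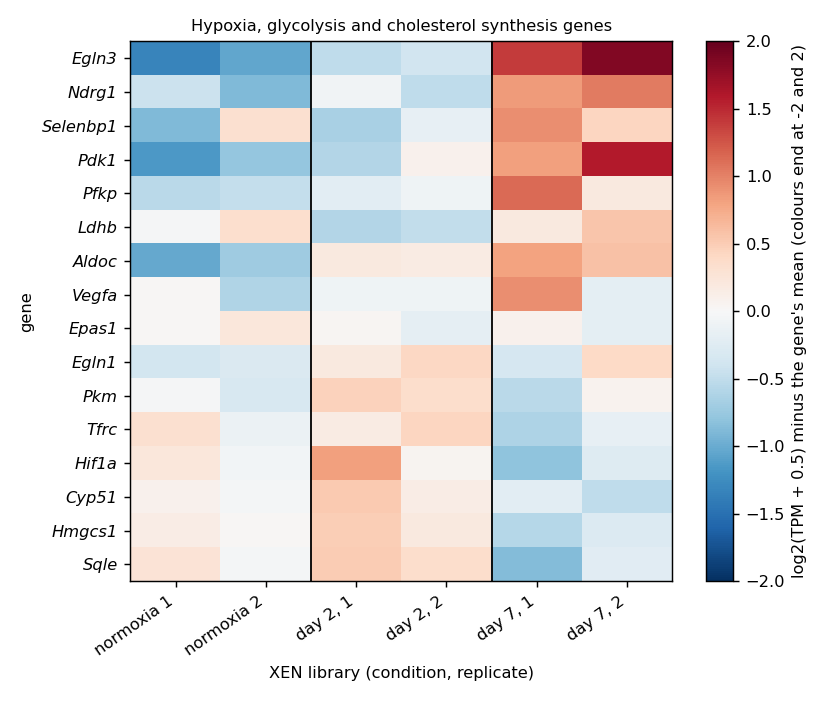
Rows are hypoxia, glycolysis and cholesterol synthesis genes and columns the 6 XEN libraries, with colour giving log2(TPM + 0.5) minus the gene's mean. Egln3 is lowest in normoxia, between on day 2 and highest on day 7, while Hif1a is highest in day 2 replicate 1 (156 TPM) and lowest in day 7 replicate 1 (50.4 TPM).

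Matrix genes other than collagen VI were examined by list. Of 15 basement membrane genes tested, 0 were DE, 13 had a log2 difference above 0, and 8 had no overlap between the days on the higher side and 0 on the lower, where 21.7% and 25.9% of all genes did. Of the 8, Fbln1 passed the filter only through day 7, at 0.298 and 0.181 TPM on day 2 and 0.586 and 0.795 TPM on day 7. The median was 0.27 and ranged from 0.23 to 0.40 with single libraries left out. Lamb2, a laminin beta chain, had 137 and 173 TPM on day 2 and 295 and 219 TPM on day 7 (log2 difference 0.72, SE 0.28, limma adjusted p = 0.41). Agrn, the proteoglycan agrin, had 64.8 and 95.7 TPM against 113 and 115 TPM. Of the collagen VI and fibrillar collagen genes tested, those other than Col6a1 and Col6a2 were not DE, and the lowest log2 difference was -0.22.

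Among 18 collagen hydroxylases, chaperones and crosslinking enzymes the median was 0.06. Their member with the largest difference, the collagen chaperone Fkbp10, had 5.84 and 6.94 TPM on day 2 and 86.1 and 15.5 TPM on day 7 (log2 difference 2.44, SE 0.71, limma adjusted p = 0.39), again with replicate 1 well above replicate 2. Of 23 smooth-muscle contractile and actin-binding genes, 2 (8.7%, against 5.17% of all genes) were past 1.5-fold with an unadjusted p under 0.05, the myosin light chain Myl9 and the intermediate filament gene Des, and the median was -0.14. Myl9 had 4.50 and 3.78 TPM on day 2 and 35.6 and 10.2 TPM on day 7, against 0.296 and 0.211 TPM in normoxia (log2 difference 2.09, SE 0.52, limma adjusted p = 0.37).

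Since collagen VI, Mmp2 and Fn1 are also products of fibroblasts, fibroblast markers were measured beside them. Of 17 such markers 3 were in the table and 1 passed the filter. Their summed level was 2.55 and 2.87 TPM on day 2, 6.52 and 10.7 TPM on day 7 and 0.616 and 4.54 TPM in normoxia. The one that passed, Tcf21, had a log2 difference of 1.58 (limma adjusted p = 0.42). The defining fibroblast collagen Col1a2 had 0.156 and 0.106 TPM on day 2 (30 and 20 reads). On day 7 it had 0.231 and 0.272 TPM (32 and 26 reads, from less deep libraries), so the days did not overlap. It was below the filter and was not tested. The sum over these 3 genes was thus higher in both day 7 libraries than on day 2. Col1a2 added at most 0.272 TPM to it, and only Tcf21 passed the filter, so the sum is no measure of fibroblast markers at large. The part of fibroblasts in the collagen VI, Mmp2 and Fn1 values was not tested. The 5 endothelial and blood markers in the table summed to 18.5 and 14.5 TPM on day 2 and 16.0 and 11.98 TPM on day 7, and the 4 trophoblast markers to 9.05 and 9.75 TPM and to 7.64 and 10.5 TPM.

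Interferon response and antigen presentation genes had the highest median of the lists with more than 1 gene tested. Of 13 tested, 0 were DE, 7 (53.8%) were past 1.5-fold with an unadjusted p under 0.05 on the higher side and 0 on the lower, against 5.17% and 2.71% of all genes. The median log2 difference was 0.63 and ranged from 0.45 to 0.79 with single libraries left out. Bst2, the antiviral membrane protein tetherin, had 5.31 and 4.50 TPM on day 2 and 65.9 and 23.4 TPM on day 7, and 7.89 and 15.9 TPM in normoxia (log2 difference 2.88, SE 0.51, limma adjusted p = 0.37). Ifitm3, which blocks viral entry, had 12.9 and 6.25 TPM against 32.7 and 29.2 TPM, and Irf7, a transcription factor of the interferon response, 3.74 and 2.99 TPM against 10.3 and 11.3 TPM. The peptide transporter gene Tap1 had 0.691 and 0.786 TPM on day 2 and 1.78 and 2.14 TPM on day 7. In each of these genes normoxia replicate 2 was above replicate 1, with 0.892 and 2.03 TPM for Tap1 and 5.72 and 14.95 TPM for Ifitm3.

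Cytosolic ribosomal protein genes were slightly higher on day 7 as a list. Of 82, 76 had a log2 difference above 0, 54 (65.9%, against 21.7% of all genes) had no overlap between the days on the higher side, and 11 (13.4%, against 5.17%) were past 1.5-fold with an unadjusted p under 0.05. The median was 0.33, with 0.23 to 0.41 on leaving out single libraries, and 0 were DE. Rpl39 had 300 and 409 TPM on day 2, 632 and 571 TPM on day 7, and 467 and 447 TPM in normoxia, so that day 2 lay below normoxia and day 7 above (log2 difference 0.78, SE 0.18, limma adjusted p = 0.37). The list's median against normoxia was -0.22 on day 2 and 0.11 on day 7. These 2 values and that of day 7 against day 2 share libraries.

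Oxidative phosphorylation subunits showed a smaller difference, with a median of 0.17 over 77 genes, 57 of them above 0, 28 (36.4%, against 21.7% of all genes) without overlap on the higher side and 3 (3.9%, against 25.9%) on the lower. That median was 0.04 without day 2 replicate 1 and 0.25 without day 2 replicate 2. Against normoxia the list's median was -0.33 on day 2 and -0.17 on day 7, and 19 of the 77 genes were above normoxia on day 7. These 2 medians share libraries with that of day 7 against day 2. Cox7c, a cytochrome c oxidase subunit and one of the 19, had 216 and 226 TPM on day 2, 363 and 375 TPM on day 7 and 334 and 354 TPM in normoxia (log2 difference 0.74, SE 0.13, limma adjusted p = 0.37). Mitochondrial ribosomal proteins had a median of 0.02 over 77 genes, with 39 above 0 and 38 below. DNA replication and mitosis genes had a median of 0.10 over 36 genes, and 0 were DE. Cdk1, the mitotic kinase, had 81.1 and 101 TPM on day 2 and 159 and 116 TPM on day 7.

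Cholesterol synthesis and uptake genes lay mostly below their day 2 values. Of 24 genes, 20 had a log2 difference below 0, 13 (54.2%, against 25.9% of all genes) had no overlap on the lower side and 0 on the higher, and 6 (25.0%, against 2.71%) were past 1.5-fold with an unadjusted p under 0.05 on the lower side, with 0 DE. The median was -0.30 and ranged from -0.51 to -0.26 with single libraries left out. Sqle, the squalene epoxidase gene, had 50.3 and 45.4 TPM on day 2, 19.1 and 30.01 TPM on day 7 and 42.9 and 34.4 TPM in normoxia (log2 difference -0.98, SE 0.24, limma adjusted p = 0.37). Hmgcs1, an early enzyme of the pathway, had 62.2 and 50.4 TPM against 29.7 and 36.4 TPM. Cyp51 had 43.3 and 33.4 TPM on day 2 and 26.0 and 21.1 TPM on day 7. Among 21 genes of fatty acid synthesis and lipid storage the median was -0.05, and the desaturase gene Scd1 had 1011 and 693 TPM against 240 and 665 TPM.

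Endoderm genes were grouped by the layer they mark. Of 15 primitive endoderm transcription factors, 13 had a log2 difference below 0 and 9 (60.0%, against 25.9% of all genes) had no overlap on the lower side, with 0 DE. The median was -0.21 and ranged from -0.59 (without day 2 replicate 2) to -0.16 (without day 7 replicate 1). Their members past 1.5-fold with an unadjusted p under 0.05 were Tbx20, with 2.62 and 2.44 TPM on day 2 and 0.661 and 1.54 TPM on day 7, and Lhx1, with 1.95 and 1.83 TPM against 0.658 and 1.06 TPM. Among the core factors the log2 differences were small for Gata4 (-0.20), Gata6 (0.02) and Sox17 (-0.16) and larger for Sox7 (-0.64, SE 0.39). The days did not overlap for Gata4, nor for Sox7, at 624 and 518 TPM on day 2 and 456 and 292 TPM on day 7. Of 17 XEN identity genes 0 were past 1.5-fold with an unadjusted p under 0.05 in either direction, against 5.17% and 2.71% of all genes, and the median was 0.13, which became -0.01 without day 2 replicate 2. The 20 parietal endoderm genes had a median of 0.12. Of 16 visceral endoderm genes, Spink1 was the one past that rule on the higher side, at 2.68 and 5.86 TPM on day 2 and 10.4 and 9.11 TPM on day 7, and Slc39a8, a zinc and manganese transporter, on the lower side, at 69.8 and 52.7 TPM against 30.9 and 38.2 TPM.

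Epithelial and mesenchymal genes, cadherins among them, had the lowest median (-0.36 over 22 genes, 11 of the 22 without overlap on the lower side and 5, or 22.7%, on the higher, against 25.9% and 21.7% of all genes). Of the 11, Cdh3 passed the filter only through day 2, at 0.444 and 0.508 TPM on day 2 and 0.114 and 0.116 TPM on day 7. Cdh2, N-cadherin, had 1.03 and 0.762 TPM on day 2 and 0.375 and 0.237 TPM on day 7, while Fn1, given above, was the largest on the higher side. Of 7 ESC markers tested, 2 were past 1.5-fold with an unadjusted p under 0.05 on the lower side, Utf1 and Tdgf1, and 1 on the higher, Klf2. The all-gene shares under this rule were 2.71% and 5.17%. Imprinted growth regulators had a median of -0.07 over 10 genes, with Peg10 at 1608 and 831 TPM on day 2 and 327 and 758 TPM on day 7. Of 20 NRF2 and metallothionein genes 16 had a log2 difference below 0, against 53.2% of all genes, with a median of -0.21. The days did not overlap in 5 of them (25.0%) on the lower side and in 0 on the higher, against 25.9% and 21.7% of all genes. Gclm, a subunit of the enzyme that starts glutathione synthesis, had 54.1 and 43.3 TPM on day 2 against 19.0 and 22.2 TPM on day 7.

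Stress and signalling lists gave small medians. ATF4 and CHOP targets with serine enzymes had a median of 0.17 over 23 genes, which ranged from -0.11 to 0.58 with single libraries left out, and the serine synthesis genes Phgdh and Psph had log2 differences of 0.87 and 0.79. ER chaperones had a median of -0.14 over 19 genes, and p53 targets and CDK inhibitors -0.16 over 20. Of 20 TGF-beta, BMP and SMAD genes the median was -0.17, with Id2 at 4.91 and 6.42 TPM on day 2 and 20.6 and 25.5 TPM on day 7 and Id4 at 63.6 and 60.0 TPM against 23.3 and 32.8 TPM. These inhibitors of basic helix-loop-helix factors thus differed in opposite directions, with neither of them DE (limma adjusted p = 0.41 and 0.37). In normoxia Id2 had 4.79 and 30.3 TPM, a span that held all its hypoxic values, and Id4 had 56.6 and 39.9 TPM. The medians of the WNT list (16 genes), the YAP/TEAD and SRF targets (15), the FGF/ERK feedback genes (22) and the demethylase, methyltransferase and TET list (22) were -0.03, -0.10, 0.10 and -0.10. With 1 hypoxic library left out, the medians of the WNT, YAP/TEAD, FGF/ERK, HIF, glycolysis, fatty acid, imprinted, collagen hydroxylase and mitochondrial ribosomal lists changed sign. So did those of the ATF4 and CHOP, XEN identity, angiogenic and trophoblast marker lists.

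**Figure D5:**
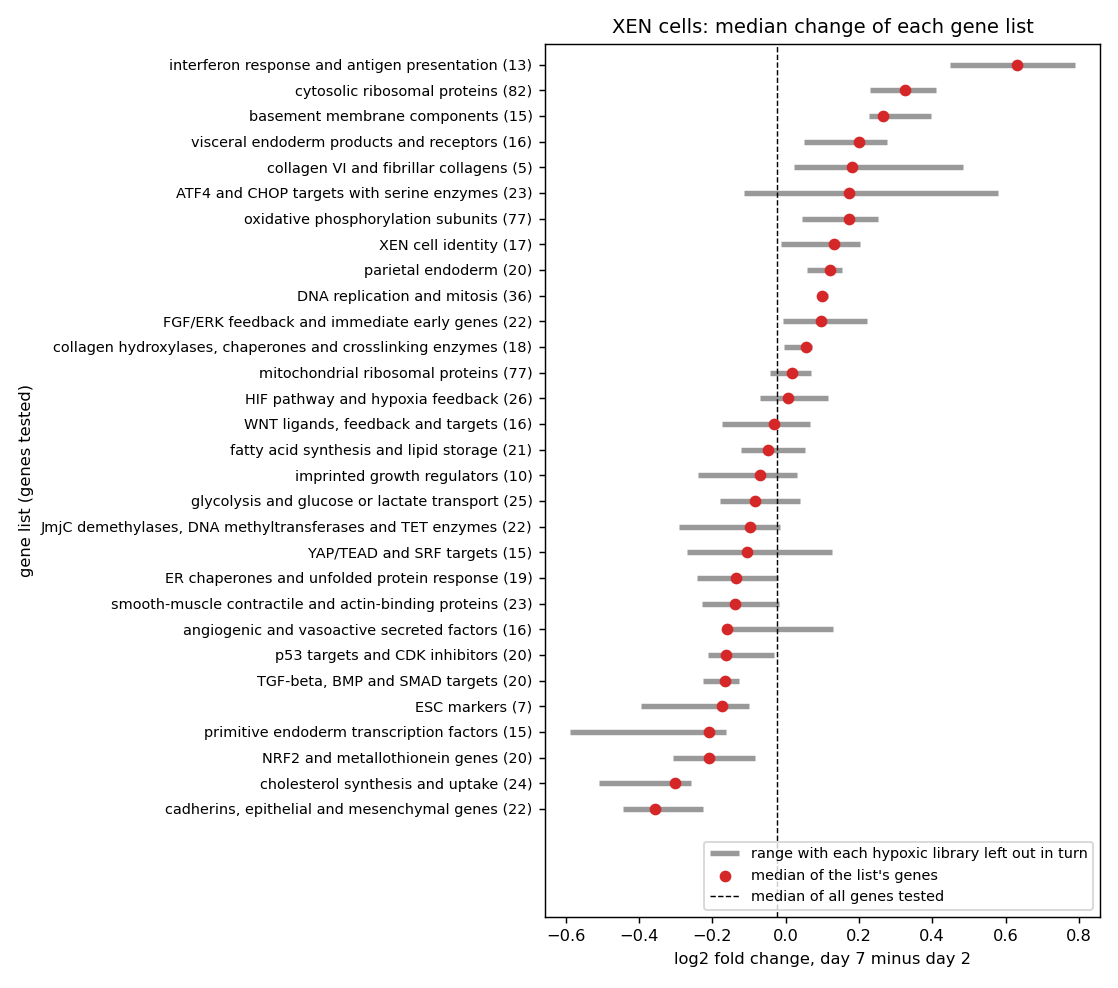
Red points are the median log2 fold change, day 7 minus day 2, of each list with at least 5 genes tested, and grey bars the range of that median with each hypoxic library left out in turn. The dashed line is the median of all genes (-0.025). Interferon response lies highest (0.63) and the cadherin list lowest (-0.36).

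The DE genes were set beside the same contrast in the other stem cells of the series, whose tables were normalized separately. In TSCs, Col6a1 had 11.1 and 26.4 TPM on day 2 and 15.2 and 15.8 TPM on day 7 (log2 difference -0.14, SE 0.60), and Col6a2 also had a log2 difference of -0.14. In ESCs Col6a1 stayed at 0.212 to 0.508 TPM over the hypoxic libraries. Adm had 47.9 and 196 TPM on day 2 and 321 and 493 TPM on day 7 in TSCs (log2 difference 2.03, limma adjusted p = 0.18), and in ESCs its days overlapped. Egln3 was DE in TSCs in the other direction, at 11.4 and 15.3 TPM on day 2 and 6.43 and 6.71 TPM on day 7 (log2 fold change -0.96, SE 0.27, limma adjusted p = 0.080). Whether these differences differ between cell types was not tested.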

How the data were processed

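RNA-seq libraries of XEN cells in normoxia, hypoxia day 2 and hypoxia day 7 (2 each) were analysed. Per the labels and the study's methods, total RNA was sequenced in 75-base pairs, reads were trimmed with cutadapt 2.4, aligned with STAR 2.7.5a, assembled with StringTie 2.0.6 and counted with featureCounts. The authors kept genes above 0.4 CPM (edgeR 3.26.8) in at least 2 libraries and deposited TPM, which sums to 1000000 per library. The columns of day 0 were taken as normoxia. The deposited TPM had been scaled by gene span with introns, so whole reads could be recovered (11367 of 11538 genes in all 6 libraries, within 0.05). Levels were therefore compared within a gene, not between genes. Sums over marker lists weigh their genes by this scaling.

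Genes above 0.4 TPM in at least 2 of 6 libraries were tested with limma 3.58.1 in R 4.3.3 on log2(TPM + 0.5) with a mean-variance trend, fitted to all 6 libraries, and adjusted by Benjamini-Hochberg over 10894 genes. The pseudocount makes fold changes of low genes smaller than the ratio of TPM. The deposited unit is not a count, so no count test was the main one. The scripts were tested on simulated data.

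Genes named were all DE genes, the 12 at each end of the fold changes (unadjusted p under 0.05, days not overlapping, mean TPM of at least 1), up to 4 per list and direction with an unadjusted p under 0.05, markers of cell types, and Hif1a, Epas1, Egln1, Egln3 and Vegfa. Some genes that the rule named are not reported here. Tcf21 and Gm35608 were added after their values or positions were seen. The comparison and the 33 gene lists were chosen with earlier results of these data known. No list was tested, and lists are described by counts and medians. Alternatives covered pseudocount, filter, scaling, trend, threshold, replicate block, libraries fitted and recovered reads.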

Additional observations from a re-analysis of the deposited data

Results flagged for a closer look

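Egln3 moved in opposite directions between day 2 and day 7 in 2 cell types, with every library of one day on the same side of the other day in each. Its log2 fold change was 2.07 in XEN cells and -0.96 in TSCs, and the difference between them was not tested. Dixon's test needs at least 4 samples a group, so with 2 per condition no library was compared with its group in that way.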

How the results depend on the processing

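The number of DE genes was 4, all higher, with a pseudocount of 0.1, with median-ratio scaling and with the replicate block, and 3 with a pseudocount of 1 or a filter at 1 TPM, both of which ended the call of Col6a2. It was 2 without a filter on low values and 2 without the mean-variance trend (Col6a1 and Adm in both), 2 at an adjusted p of 0.05 and 2 with voom on recovered reads (Col6a1 and Egln3). A fit to the 4 hypoxic libraries gave 37, and leaving out one library gave from 0 to 83. Without either normoxic library it was 36, without either day 2 library 0 and without day 7 replicate 1 it was 1. The cause was not tested.

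Libraries with the same replicate number deviated together weakly or not at all. Deviations from the group means correlated at -0.11 for the 2 hypoxic days, at 0.11 for day 2 with normoxia and at 0.24 for day 7 with normoxia. Whether libraries of one number shared a culture was not tested. The replicate block gave 4 genes, the same 4 as without it. A pair of alternatives was chosen after seeing the data. A block with the day 7 numbers swapped gave 1 gene (Col6a1), and TPM recomputed by exon length gave 6, 5 of them higher.

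No direction of a DE gene changed under any of these settings. Low reads limit Adm and Col6a2 on day 2, and 2 libraries per day limit all tests.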
